A study of Mus musculus with 5 samples.

Results

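Intron signal was followed in 2 stretches of mouse chromosome 17, each 35 kb long, which lie in candidate introns of the genes Lnpep and Zfand3. The members are the array probes at file positions chr17:16240000-16274999 (150 probes, the Lnpep stretch) and chr17:28615000-28649999 (193 probes, the Zfand3 stretch), 343 of the 387986 chromosome 17 probes in all. Grouped in windows of 5 kb with at least 8 probes, they make 7 and 7 of 15383 windows. The stretches were chosen by their array values, because MEFF total RNA stood above MEFF polyA RNA there, so every value of that contrast in the stretches, calls and adjusted p included, is a description and no support for a difference.

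The arrays compared RNA of 2 mouse embryo fibroblast lines of strain FVBN, spontaneously immortalised and taken 12.5 days after conception. MEFF has the genotype Thp/+ and MEFB +/Thp, so both lines carry the Thp deletion, which spans at least 4.6 Mb of chromosome 17. Both stretches lie outside it. The groups were MEFF total RNA (2 arrays), MEFF polyA RNA (2 arrays) and MEFB polyA RNA (1 array), each hybridised as double-stranded cDNA against genomic DNA (input) of the same line. Total RNA holds every RNA of the cell, and polyA RNA the part with a polyA tail. The cDNA keeps no strand, so the signal can come from either strand. A level is the mean of log2(cDNA/input) over probes, with the median of each array at 0.

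The range of cDNA intensity differed between arrays. The ratio of the 99th percentile of cDNA intensity to the median was 5.33 and 5.42 for total RNA, 9.17 and 22.4 for the MEFF polyA pair and 20.7 for MEFB. Window levels had an SD of 0.35 to 0.36 in the total RNA pair and of 0.37 to 0.63 in the polyA RNA arrays. Window levels correlated at 0.974 between the total RNA arrays and at 0.952 between the MEFF polyA arrays. The slides of the total RNA pair belonged to another series than those used for polyA RNA, and slide series cannot be told apart from RNA type. Of 12 chromosome 17 marker genes for fibroblasts and other cell types, Cyp1b1, Cldn6, Cldn9 and H2-Ab1 had at least 3 probes placed in their exons. The fibroblast-expressed gene Cyp1b1 stood at 0.72, 0.71, 1.41, 2.41 and 4.80 on the 5 arrays in the order above. The epithelial genes Cldn6 and Cldn9 reached at most -0.04 and 1.32, and the antigen presentation gene H2-Ab1 at most -0.01. A second antigen presentation gene, H2-Aa, had 1 such probe and was not counted as placed. By a looser count, 7 probes within it touched an annotated exon, which may also be one of an overlapping gene. These stood at -0.16, -0.42, -0.35, -0.48 and -1.18.

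An intron is transcribed with its gene and then cut out of the RNA. Unspliced RNA therefore adds intron signal, much of which is lost when RNA is selected for polyA tails, while exons of the spliced mRNA are kept. Lnpep encodes insulin-regulated aminopeptidase, a membrane enzyme that cleaves peptide hormones such as oxytocin and travels in the vesicles that carry the glucose transporter GLUT4. Zfand3 encodes a zinc finger protein of the AN1 type.

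The gene names rest on a placing of the array on the NCBIM37 genome by the input signal, because the sources used here name no build for the positions. Both 25 kb blocks of the Lnpep stretch matched best at the same shift of 1484839 bp. Their correlations there were 6.79 and 6.54 times the SD of the correlations over all shifts tried. The blocks of the Zfand3 stretch matched at 1534541 and 1534536 bp, 6.02 and 6.77 SD above. Blocks of 50 kb gave shifts of 1484839 and 1534539 bp. At these shifts, all 150 probes of the Lnpep stretch fell in intron 1 of Lnpep (ENSMUSG00000023845.6, chr17:17664687-17761453 of NCBIM37, minus strand), and all 193 of the Zfand3 stretch in intron 1 of Zfand3 (ENSMUSG00000044477.9, chr17:30142032-30346964, plus strand). None touched an exon, coding or untranslated.

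Intron 1 of Lnpep is 45021 bp long (chr17:17716337-17761357), and the stretch spans 77.7% of it, from 1.6 to 36.5 kb after the gene start. Intron 1 of Zfand3 is 55501 bp long (chr17:30142254-30197754), and the stretch spans 63.1% of it, from 7.6 to 42.3 kb after the start. In both genes intron 1 splits the coding sequence. The 2 sequences that follow are the spliced coding bases of GENCODE M1 on either side of it, shown to fix where the intron with the signal is cut out, with exon 1 in lower case and exon 2 in capitals.
Lnpep exon 1 to exon 2: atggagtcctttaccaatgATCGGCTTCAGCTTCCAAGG
Zfand3 exon 1 to exon 2: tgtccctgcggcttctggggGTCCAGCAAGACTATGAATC

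The cDNA signal outside exons rose close to the placed start of both genes, and no cDNA value had been used in the placing. The 250 bases before each start are shown for that reason. They are RefSeq sequences of the GRCm38.p6 build, matched in full to NCBIM37 at chr17:17761454-17761703 (Lnpep, minus strand) and chr17:30141734-30141983 (Zfand3, plus strand, whose RefSeq start lies a little before the GENCODE start). Capitals mark the GC box, GGGCGG or its reverse complement CCGCCC.
Lnpep promoter: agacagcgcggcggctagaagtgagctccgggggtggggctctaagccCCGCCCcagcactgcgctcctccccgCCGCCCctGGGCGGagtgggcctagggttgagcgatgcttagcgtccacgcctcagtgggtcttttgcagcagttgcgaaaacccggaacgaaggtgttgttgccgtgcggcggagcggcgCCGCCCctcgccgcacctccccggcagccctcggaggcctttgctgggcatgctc
Zfand3 promoter: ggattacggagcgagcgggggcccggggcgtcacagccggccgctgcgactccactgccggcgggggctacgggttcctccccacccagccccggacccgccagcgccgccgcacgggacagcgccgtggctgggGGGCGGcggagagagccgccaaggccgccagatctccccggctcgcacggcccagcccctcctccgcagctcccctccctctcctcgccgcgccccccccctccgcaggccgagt
The Lnpep window holds 4 GC boxes and the Zfand3 window 1, counted on both strands with overlaps allowed. At least 1 was found in 32.7% of 32851 promoter windows of the same length, and at least 4 in 4.1%. Neither window holds TATAAA on either strand, which 12.4% of the promoter windows do. The share of G and C was 70.0% for Lnpep and 79.2% for Zfand3. A match is a description of these letters and not a binding site.

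Both stretches were read above the array median on all 5 arrays. Over the 150 probes of the Lnpep stretch, the level read 0.67 and 0.63 for MEFF total, 0.19 and 0.48 for MEFF polyA and 0.51 for MEFB. Total RNA was highest on both arrays, and the lower MEFF polyA array stood apart from the other 4. In order, the groups were MEFF total RNA at 0.65 ± 0.03 (SD, n = 2), MEFB polyA RNA at 0.51 (n = 1) and MEFF polyA RNA at 0.34 ± 0.20 (SD, n = 2). MEFB differed from MEFF polyA RNA by 0.17, less than the SD of the MEFF polyA arrays.

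Over the 193 probes of the Zfand3 stretch, the level read 0.98 and 0.86 for MEFF total, 0.56 and 0.66 for MEFF polyA and 1.14 for MEFB. Here the polyA RNA of MEFB was the highest, above both total RNA arrays. In order, the groups were MEFB polyA RNA at 1.14 (n = 1), MEFF total RNA at 0.92 ± 0.08 (SD, n = 2) and MEFF polyA RNA at 0.61 ± 0.07 (SD, n = 2). The excess of MEFF total over MEFF polyA RNA was 0.31 in both stretches. In RNA of whole cultures, fewer cells that transcribe a gene and less RNA per cell cannot be told apart.

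The signal was spread over most probes rather than a few. In the Lnpep stretch, 140 and 138 of 150 probes lay above the array median in total RNA, 98 and 120 in the MEFF polyA pair and 121 for MEFB. In the Zfand3 stretch, 185 and 182 of 193 did so in total RNA, 177 and 164 in the MEFF polyA pair and 182 for MEFB.

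**Figure D1:**
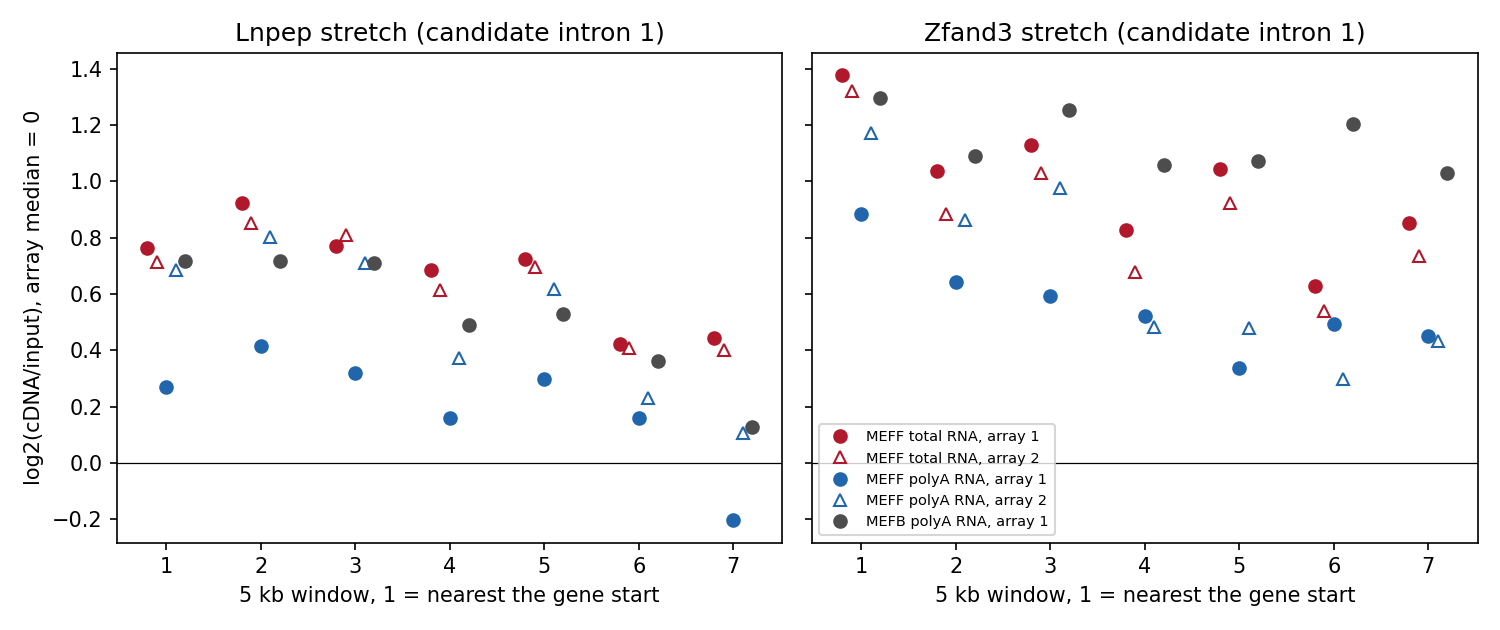
Level of each 5 kb window of the Lnpep stretch (left) and the Zfand3 stretch (right), as log2(cDNA/input) with the array median at 0. Each symbol is 1 array, and window 1 is nearest the candidate gene start. Red total RNA symbols lie above both blue MEFF polyA symbols in all 14 windows, against 14.2% of all windows. The stretches were chosen on this contrast. Grey MEFB symbols lie above both blue ones in 7 of 7 Zfand3 and 4 of 7 Lnpep windows, against 34.7% of all windows.

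The size of the excess differed between single windows. In the Lnpep stretch, window levels ran from 0.42 to 0.93 and from 0.40 to 0.85 on the total RNA arrays, and from -0.20 to 0.42 and from 0.11 to 0.80 on the MEFF polyA arrays. The window at 16240000, farthest from the gene start, had the largest excess of total RNA. It stood at 0.44 and 0.40 in total RNA, -0.20 and 0.11 in the MEFF polyA pair and 0.13 for MEFB, a difference of 0.47. The window at 16245000 had the smallest difference, 0.22. Just outside, the window at 16235000 stood at 0.16, 0.11, -0.09, -0.13 and 0.03 on the 5 arrays, and the one at 16275000, which holds the gene start, at 0.33, 0.40, 0.23, 0.66 and 0.15.

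In the Zfand3 stretch, window levels ran from 0.63 to 1.38 and from 0.54 to 1.32 on the total RNA arrays, from 0.34 to 0.88 and from 0.30 to 1.17 on the MEFF polyA arrays, and from 1.03 to 1.30 in MEFB. The window at 28635000 had the largest excess of total RNA. It stood at 1.04 and 0.92 in total RNA, 0.34 and 0.48 in the MEFF polyA pair and 1.07 for MEFB, a difference of 0.57. The window at 28640000 had the smallest, 0.19, with MEFB at 1.21 against 0.63 and 0.54 in total RNA. Just outside, the window at 28610000, which follows the gene start, stood at 1.35, 1.21, 0.82, 1.01 and 1.48, and the one at 28650000 at 0.61, 0.54, 0.39, 0.43 and 0.86.

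In all 14 windows both total RNA arrays lay above both MEFF polyA arrays, as they did in 14.2% of all windows. Since the stretches were chosen on this contrast, nothing is read from that count or from the calls of the 14 windows that follow. The median difference was 0.27 over the Lnpep windows and 0.29 over the Zfand3 windows, against -0.01 over all windows. After normexp the median of all windows lay at -0.10. With intensities as deposited, limma called 0 of 15383 windows (0%) and 0 of the 14, whose adjusted p ran from 0.573 to 0.93, while 1189 windows had a raw p under 0.05. With normexp as background correction, limma called 10 of the 14 higher in total RNA, 6 in the Lnpep and 4 in the Zfand3 stretch, against 0.689% of all windows. After quantile normalization it called 13 of the 14 higher, 7 and 6, against 2.53%. Without MEFF polyA replicate 1, with intensities as deposited, 7 of the 14 were called against 29.2% of all windows in either direction, and without replicate 2 it was 13 against 20.8%. After normexp, leaving out MEFF total replicate 1 left 0 of the 14 called (1.12% of all windows) and leaving out replicate 2 left 1 (0.527%).

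The channels differed between the stretches. In the cDNA channel alone, the Lnpep stretch stood at 0.65 and 0.68 in total RNA, 0.48 and 0.66 in the MEFF polyA pair and 0.65 for MEFB, so that the groups overlapped and the difference was 0.10. In the input channel, which holds genomic DNA, the same probes stood at -0.07 and 0.00 for total RNA, 0.25 and 0.03 for the MEFF polyA pair and 0.00 for MEFB. The Zfand3 stretch stood at 1.41 and 1.26, 0.73 and 1.33, and 1.40 in the cDNA channel, again with overlap, and the difference was 0.31. Its input levels were 0.38 and 0.35, 0.14 and 0.52, and 0.12.

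The MEFB array took no part in the choice of the stretches. It lay above both MEFF polyA arrays in 7 of 7 Zfand3 windows and 4 of 7 Lnpep windows, against 34.7% of all windows. The mean difference from MEFF polyA RNA was 0.52 over the Zfand3 stretch and 0.17 over the Lnpep stretch. The choice of the stretches favoured low MEFF polyA levels, which also raises this difference, so nothing is read from it or from the counts. limma called 0 of the 14 windows with intensities as deposited, where 0.00650% of all windows were called, and the lowest adjusted p was 0.12. It called none of the 14 after normexp or quantile normalization either, where 3.17% and 6.81% were called. Unadjusted, 2415 windows passed at a p of 0.05 with intensities as deposited. The comparison uses the same MEFF polyA arrays as the choice of the stretches, so the MEFF polyA levels are shared by both. It called 5 and 14 of the 14 without MEFF polyA replicate 1 and 2, where 45.4% and 44.8% of all windows were called. In such fits the spread comes from the total RNA pair alone.

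Set beside MEFF total RNA, MEFB lay above both arrays in 6 of 7 Zfand3 windows and in 0 of 7 Lnpep windows, against 49.8% of all windows. It lay below both in 6 of 7 Lnpep windows, against 39.5%. The mean difference was 0.22 for Zfand3 and -0.14 for Lnpep, and limma called 0 of the 14 windows, against 0.377% of all windows. The Zfand3 direction turned with the scaling, to -0.22 after normexp and -0.48 after quantile normalization. The Lnpep direction held, at -0.85 and -0.51. After normexp, 2 Lnpep windows were called lower in MEFB (1.25% of all windows), and after quantile normalization 5 Lnpep and 4 Zfand3 windows were (3.63%). Cell line, RNA type and slide series cannot be told apart in this comparison. The choice of the stretches also favoured high MEFF total levels, which lowers this difference, so nothing is read from these counts.

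**Figure D2:**
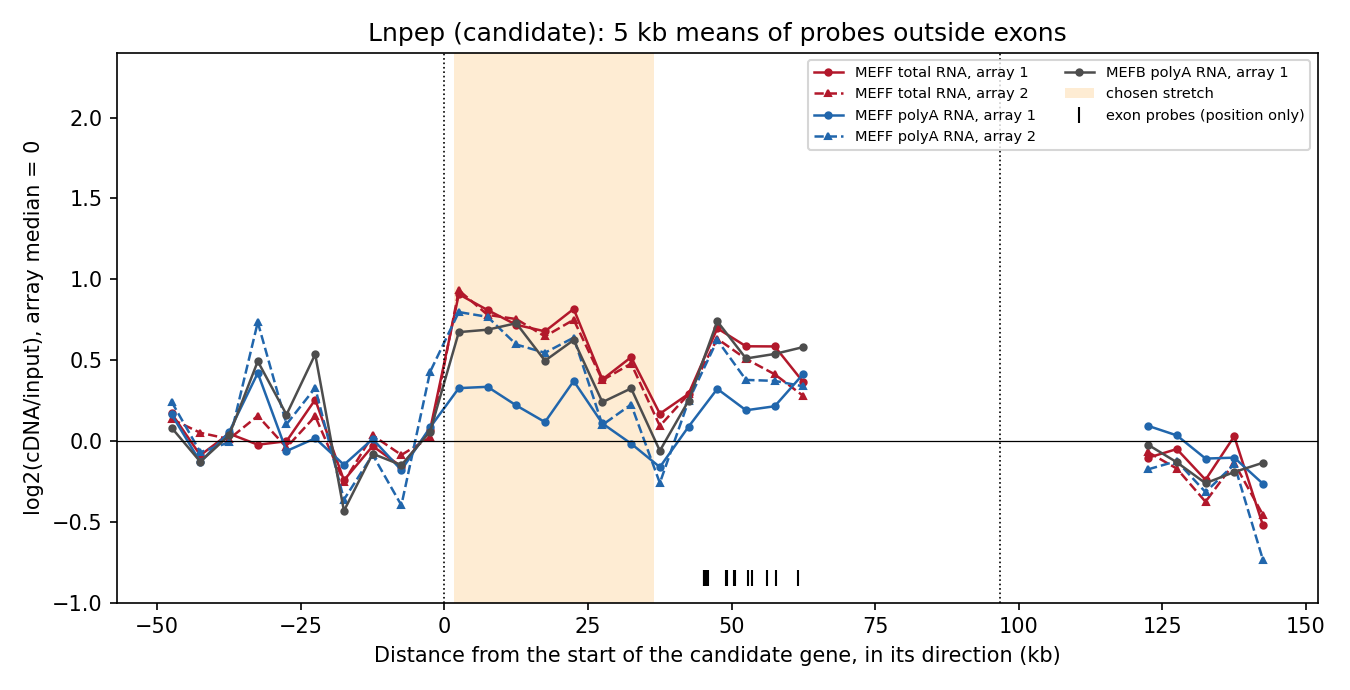
Level of probes outside exons in 5 kb steps along the candidate Lnpep gene, by distance from its start, as log2(cDNA/input) with the array median at 0. Each line is 1 array, the shaded part is the chosen stretch, dotted lines mark the gene's ends and ticks mark exon probes. From the step before the start to the first step after it, the total RNA arrays move from 0.07 and 0.02 to 0.91 and 0.93.

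Along Lnpep, signal outside exons rose at the gene start. In the 25 kb before the start, 108 probes averaged between -0.04 and -0.01 on the 5 arrays. Single 5 kb steps there were uneven. The step centred at -22.5 kb stood at 0.26 and 0.15 in total RNA, 0.02 and 0.33 in the MEFF polyA pair and 0.54 for MEFB. Farther out, the step at -32.5 kb stood at 0.42 and 0.73 in the MEFF polyA pair and 0.49 for MEFB. In the first 25 kb of introns the level was 0.80 and 0.77 in total RNA, 0.29 and 0.68 in the MEFF polyA pair and 0.63 for MEFB. The next 25 kb stood at 0.42 and 0.38, 0.08 and 0.20, and 0.32. The excess of total over MEFF polyA RNA was 0.30, 0.26 and 0.14 in successive 25 kb steps. The array holds no probe from file position 16156410 to 16213444, a gap of 57.0 kb over the later part of the gene, so exons 10 to 18 were not read.

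**Figure D3:**
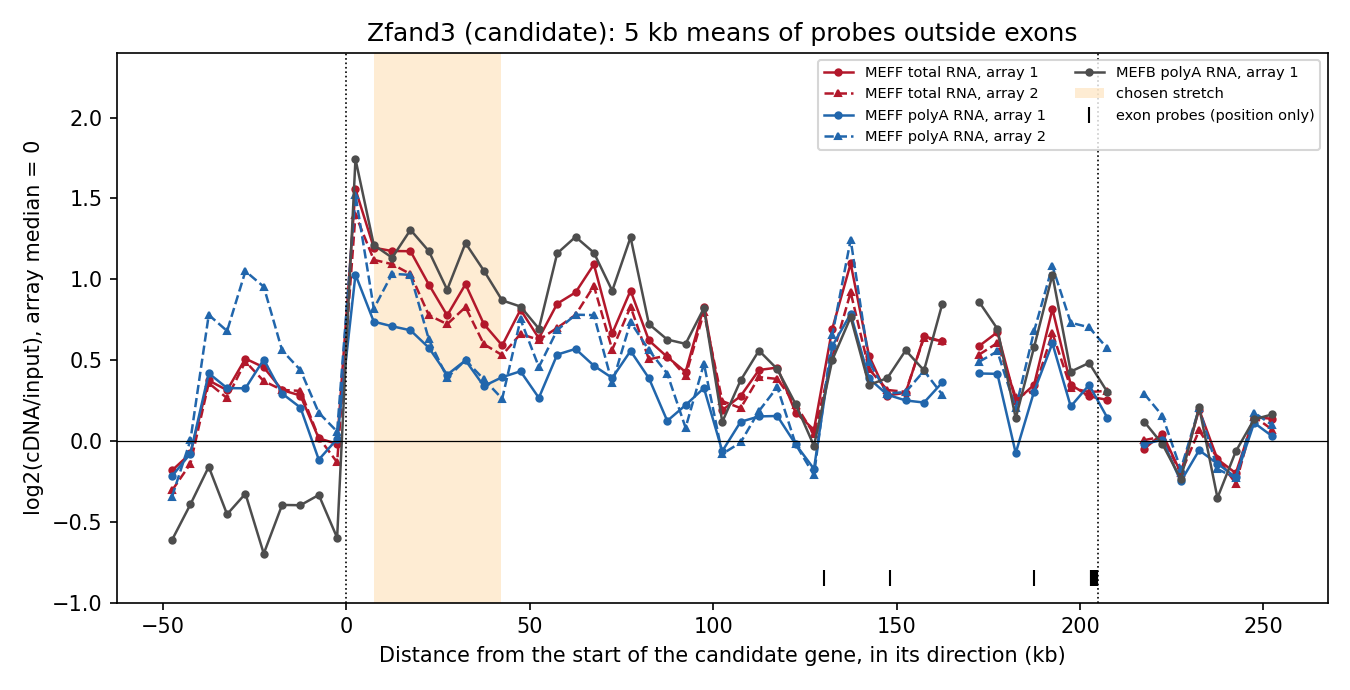
Level of probes outside exons in 5 kb steps along the candidate Zfand3 gene, drawn in the same way. From the step before the start to the first step after it, the total RNA arrays move from -0.02 and -0.13 to 1.56 and 1.40 and the MEFB array from -0.60 to 1.74.

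Along Zfand3, the step in level at the start was larger, and introns far from the start were read lower than those near it. The last 5 kb before the start stood at -0.02 and -0.13 in total RNA, 0.01 and 0.06 in the MEFF polyA pair and -0.60 for MEFB. The first 5 kb after it stood at 1.56 and 1.40, 1.03 and 1.52, and 1.74. By 25 kb steps of intron, the total RNA arrays stood at 1.21 and 1.08 nearest the start and at 0.31 and 0.29 between 100 and 125 kb. The last full step, 175 to 200 kb, stood at 0.49 and 0.44. The excess of total over MEFF polyA RNA lay between 0.22 and 0.29 in each step up to 125 kb. Beyond it was 0.07, 0.19 and -0.04.

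Introns outside the chosen stretches showed differences of the same sign. In the rest of intron 1 of Lnpep (55 probes), the level was 0.33 and 0.33 in total RNA, 0.03 and 0.14 in the MEFF polyA pair and 0.16 for MEFB. The later introns of Lnpep that were read (100 probes) stood at 0.58 and 0.48, 0.29 and 0.45, and 0.61. In the rest of intron 1 of Zfand3 (115 probes), the level was 0.89 and 0.81, 0.50 and 0.73, and 1.00. The later introns of Zfand3 (807 probes) stood at 0.53 and 0.48, 0.29 and 0.43, and 0.62. With intensities as deposited, both total RNA arrays lay above both MEFF polyA arrays in each of these 4 parts, and in 14.2% of all 5 kb windows. The parts belong to the same genes as the chosen stretches, so nothing is read from this. The excess was 0.24 and 0.16 for Lnpep and 0.23 and 0.14 for Zfand3. It was above 0 in all of them after normexp, loess and quantile normalization and in the cDNA channel alone. In the cDNA channel, though, the total RNA and MEFF polyA arrays overlapped in every part but the rest of intron 1 of Lnpep. With intensities as deposited the excess was smaller than in the stretches, but not under each setting. After loess the rest of intron 1 of Lnpep stood at 0.35 against 0.31 in the stretch, and in the cDNA channel at 0.16, with later introns at 0.14, against 0.10.

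**Figure D4:**
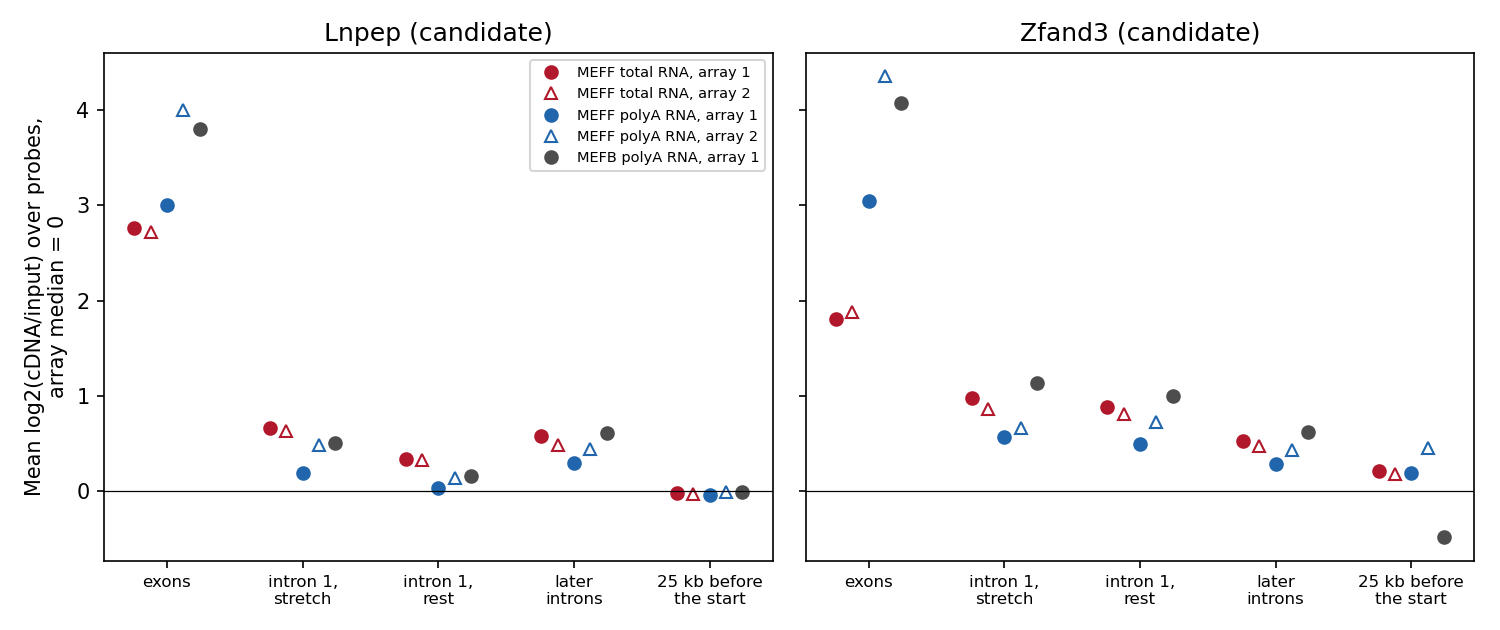
Mean level over the probes of 5 parts of the candidate Lnpep (left) and Zfand3 (right) genes on each array, as log2(cDNA/input) with the array median at 0. The Zfand3 exons stand at 1.80 and 1.89 in total RNA against 3.05, 4.36 and 4.08 in the polyA RNA arrays.

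Exons of both genes were bright on every array. The 16 exon probes of Lnpep, in exons 2 to 9, averaged 2.76 and 2.72 in total RNA, 3.01 and 4.00 in the MEFF polyA pair and 3.81 for MEFB. Exon 2, with 7 probes, stood at 3.52 and 3.28, 4.07 and 4.91, and 4.76. Both total RNA arrays were lowest, and the MEFF polyA arrays lay further from each other than the lower of them lay from total RNA. The difference of total from MEFF polyA RNA was -0.76 with intensities as deposited and -0.46 after normexp, but 0.45 after loess and 0.64 after quantile normalization. The direction for the Lnpep exons therefore depends on the scaling.

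The 15 exon probes of Zfand3 averaged 1.80 and 1.89 in total RNA, 3.05 and 4.36 in the MEFF polyA pair and 4.08 for MEFB. All polyA arrays stood above both total RNA arrays with intensities as deposited. The last exon, which holds the 3′ untranslated region, carried 12 of these probes, which stood at 1.74 and 1.72, 2.95 and 4.21, and 3.90. The difference of total from MEFF polyA RNA was -1.86, and it stayed below 0 after normexp (-1.82), loess (-0.37) and quantile normalization (-0.66). After loess, however, the arrays overlapped. MEFF polyA replicate 2 (1.99) fell below both total RNA arrays (2.01, 2.13), while replicate 1 (2.89) lay above them. The loess difference was smaller than the SD of the MEFF polyA pair, 0.64. In 14 of 15 Zfand3 exon probes and 9 of 16 Lnpep exon probes, both total RNA arrays lay below both MEFF polyA arrays, as they did in 57.8% of 12152 placed exon probes. Probes differ in brightness for reasons of their own sequence, so differences between arrays over the same probes are the measure here.

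**Figure D5:**
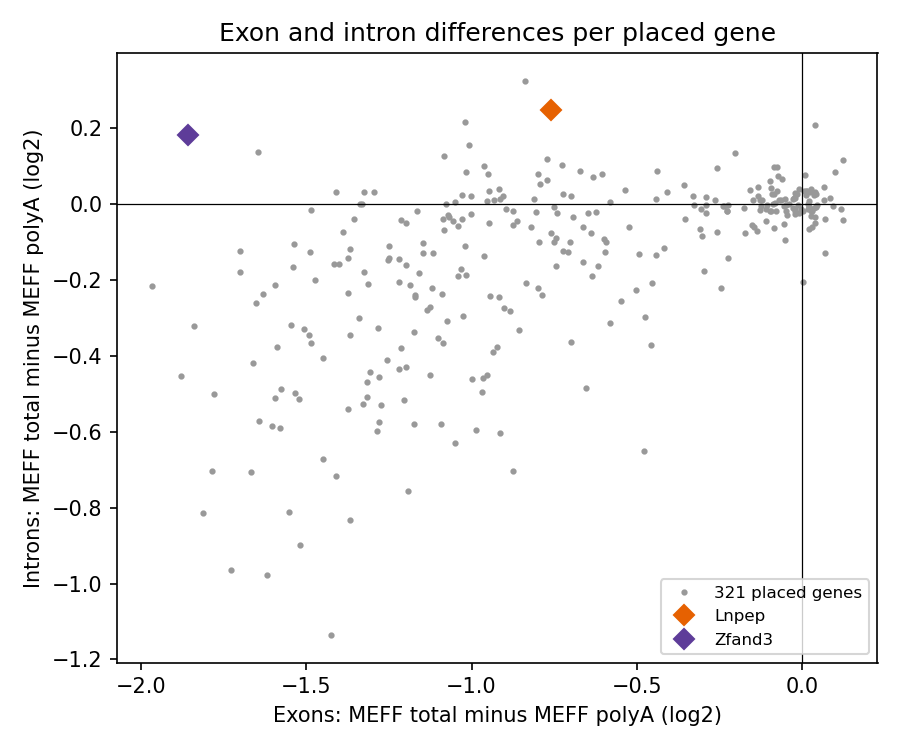
Difference of MEFF total minus MEFF polyA RNA in exons (x axis, log2) and introns (y axis, log2) for 321 placed protein-coding genes. Levels are with intensities as deposited, with 1 point per gene and the 2 candidate genes as diamonds. Lnpep stands at -0.76 and 0.25, and Zfand3 at -1.86 and 0.18, near the lower end of the exon axis.

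Among 321 protein-coding genes with at least 5 exon and 20 intron probes placed, introns were higher in total than in MEFF polyA RNA in 89 (27.7%), and the median difference was -0.06. Lnpep introns had the second largest difference (0.25) and Zfand3 introns the fifth (0.18), which the choice of the stretches in part fixes. The others of the first 5 were Qk, which encodes an RNA-binding protein (0.32), Efna5, which encodes an ephrin ligand (0.21), and Fbxl17, which encodes an F-box protein (0.21). Exon probes here are those within a gene that touch an annotated exon, also one of an overlapping gene. In exons, the median difference was -0.77. Lnpep stood at -0.76, close to it, and Zfand3 at -1.86, the 319th of 321 from the top. All values over the 321 genes are with intensities as deposited, and genes were not ranked under other scalings. Lnpep exons stood at 0.45 after loess and 0.64 after quantile normalization, and Zfand3 exons at -0.37 and -0.66.

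The flanks of the stretches were read in the same way. Within 100 kb on the Lnpep side past the gene start, 15 windows had a median difference of total from MEFF polyA RNA of 0.02, and the 9 windows on the other side of -0.04. These 9 lie partly in the gene and partly beyond its end, past the gap. After quantile normalization their median was 0.22 and 4 were called higher in total RNA, against 2.53% of all windows. After normexp 1 was, against 0.689%. All windows past the Zfand3 stretch lie in the gene. There the difference was above 0 in 20 of 20 windows, with a median of 0.21. Of these, limma called 4 higher in total RNA after normexp (against 0.689% of all windows) and 16 after quantile normalization (against 2.53%). They adjoin a stretch chosen on this contrast, so nothing is read from these counts. The 20 windows before the Zfand3 stretch, which reach past the gene start, had a median of -0.03. None of these windows was called with intensities as deposited.

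Before the Zfand3 start, MEFB had the lowest levels. In the 25 kb before the start (122 probes), probes read 0.22 and 0.18 for MEFF total RNA, 0.19 and 0.45 in the MEFF polyA pair and -0.49 for MEFB. From 25 to 50 kb before it, the levels were 0.23 and 0.19, 0.20 and 0.54, and -0.36. Within that part, the 5 kb step centred at -27.5 kb stood at 0.51 and 0.49, 0.33 and 1.05, and -0.33. MEFB was below all 4 MEFF arrays in both 25 kb parts. Over all 5 kb windows, it lay below both total RNA arrays in 39.5%, and the share below all 4 MEFF arrays was not counted. Of the 20 windows before the stretch, the one at 28605000 holds the gene start and the one at 28610000 lies in the gene. Over these 20, limma called 0 lower in MEFB than in MEFF polyA RNA with intensities as deposited. It called 6 after normexp (against 1.21% of all windows) and 8 after quantile normalization (against 3.11%). The genes annotated within 100 kb on that side are SNORA70, a small nucleolar RNA, and Mdga1, which encodes a cell surface protein with immunoglobulin domains. On the Lnpep side the gene in that range is Vmn2r90, a vomeronasal receptor gene.

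Windows elsewhere with the most similar levels were taken by Euclidean distance over the 5 arrays, at least 500 kb away. For the Lnpep stretch, the nearest window was at 67615000 (distance 0.12), in a block with no accepted placing, followed by 42825000 (0.15), placed in Runx2, which encodes a transcription factor of bone formation. The others were at 5145000, at 61550000 (placed in Fbxl17) and at 72695000. For the Zfand3 stretch, the nearest was at 63960000 (distance 0.21), placed at Vapa, which encodes a protein of the endoplasmic reticulum. It was followed by 72675000, by 42840000 and 42850000 (both placed in Runx2) and by 72705000 (placed at Memo1, which encodes a protein of cell motility). Since the 5 levels include the arrays that chose the stretches, this likeness is a description.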

How the data were processed

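Per the file headers, NimbleScan 2.2.34 produced the deposited files, which list 1 raw intensity per probe and dye. Per the labels, cDNA was in the Cy3 channel and input DNA of the same line in the Cy5 channel on all arrays. The authors' files hold no background correction and no normalization, judging from the values. All 10 files were used, and the 387986 chromosome 17 probes of 388000 were kept. A level is log2(cDNA/input) minus the array median. Probes were averaged in 5 kb windows of at least 8 probes (15383 windows). limma 3.58.1 fitted the 3 group means (lmFit, eBayes), with Benjamini-Hochberg adjustment over all windows and a threshold of 0.05. For the single MEFB array the fit assumes the spread of the other groups. Alternatives were normexp with offset 50, loess with span 0.3, quantile normalization, the cDNA channel alone, medians of probes, windows of 2 and 10 kb, a trended prior, fits of the compared groups alone, removal of the lowest 10% of input signal, and each replicate left out.

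The sources used here do not give the genome build behind the positions. At the file positions, the input signal had a correlation of 0.0166 with the signal predicted from NCBIM37 base composition. Blocks of 25 kb were therefore shifted by 500 to 3500 kb along NCBIM37 until the predicted and measured input signal matched best. No cDNA value was used. A block was accepted where the correlation at the best shift was at least 5 times the SD over all shifts and led the next by 1.5 SD. A block at 4 times the SD or more was also accepted within 1000 bp of a neighbour's shift. Accepted blocks numbered 1580 of 3058, and 66.5% of probes were placed in or between them. Probes between blocks were classed as exon or intron only where both neighbouring shifts gave the same class, a rule chosen after seeing the data. Exons are those of GENCODE M1, and 50 bases per probe were read. The placing was repeated with blocks of 50 kb.

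The 2 stretches, the gene lists and the tests were chosen with earlier results of these data known. The stretches were picked on MEFF total against MEFF polyA RNA, so that contrast is a description here. Names in the text were limited to the candidate genes, the windows of each stretch, 5 windows on each side, the 5 windows elsewhere with the nearest levels, genes within 100 kb and placed marker genes. A placed gene ranked beside the candidates was named after its values were seen. The fit was tested on simulated data. The number of arrays limits the precision, and nothing in the labels ties replicates to separate cultures, so the p-values cover the spread of these arrays alone, which may be technical.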

Additional observations from a re-analysis of the deposited data

How the results depend on the processing

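No paired analysis was possible because the labels give no replicate numbers that link arrays of different groups. Cause was not tested for any change below. Where 1 MEFF polyA array was left out, or MEFB was fitted with MEFF total RNA alone, the spread came from the total RNA pair. For MEFF total minus polyA RNA, the Lnpep difference was 0.90 after normexp, 0.57 after quantile normalization and 0.10 in the cDNA channel alone, and the Zfand3 difference was 0.76 after normexp, 0.70 after quantile normalization and 0.50 after loess. limma called 518 windows after normexp (10 in the stretches) and 929 after quantile normalization (13 in the stretches). Exons of Lnpep turned to 0.45 after loess and 0.64 after quantile normalization, and exons minus introns to 0.17 and 0.18. Exons of Zfand3 stood at -0.37 and -0.66. For MEFB minus MEFF polyA RNA, 488 windows were called after normexp, 382 after loess (1 in the stretches), 1047 after quantile normalization, 18 in the cDNA channel, 0 with medians of probes, 4 of 2 kb, 8 of 10 kb, 405 with a trended prior and 0 with the compared groups only, and the Zfand3 difference was 0.22 after quantile normalization and 0.36 in the cDNA channel. For MEFB minus MEFF total RNA, 763 were called after normexp (2 in the stretches), 569 after loess, 1285 after quantile normalization (9 in the stretches), 125 of 2 kb, 32 of 10 kb, 447 with a trended prior and 6969 with the compared groups only (6 in the stretches). Its Lnpep difference was -0.85 after normexp and -0.51 after quantile normalization, and its Zfand3 difference -0.22 and -0.48, against 0.083 after loess and 0.059 in the cDNA channel. With each MEFF array left out in turn, total minus polyA RNA gave 0 to 4485 windows (0 to 13 in the stretches), differences of 0.16 to 0.45 (Lnpep) and 0.25 to 0.36 (Zfand3), exon differences of -1.26 to -0.26 (Lnpep) and -2.51 to -1.20 (Zfand3). After normexp the counts were 81 to 1984 (0 to 11 in the stretches). MEFB minus polyA RNA gave 0 to 6984 windows (0 to 14), with 0.03 to 0.32 (Lnpep) and 0.47 to 0.57 (Zfand3), and MEFB minus total RNA 0 to 6969 (0 to 6), with -0.16 to -0.12 (Lnpep) and 0.16 to 0.27 (Zfand3). The ratio of high to median cDNA intensity was lowest on the total RNA arrays. Background was not measured, and whether it limits the low levels was not tested.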

Other observations

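Placed windows were split by what they hold. After normexp, limma called 91 of 2600 windows made only of intron probes, 88 of them higher in MEFF total than in MEFF polyA RNA. Of 1979 windows with an exon probe it called 190, of which 188 were lower in total RNA. Of 5118 intergenic windows it called 15. Among the 88 intron windows are the 10 called windows of the stretches, which were chosen on this contrast and were not taken out. Windows called higher in total RNA numbered 106 of 15383, but 8 without MEFF total replicate 1 and 5 without replicate 2. With intensities as deposited it called none in any of these classes. Per gene, with intensities as deposited, exons were lower in total RNA in 284 of 321 placed genes (88.5%), and in 72 genes (22.4%), Lnpep and Zfand3 among them, exons were lower and introns higher.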
